A study of Mus musculus with 6 samples.

Results

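The miR-23, miR-24 and miR-27 hairpins lie close together in 2 places of the mouse genome, and the strands described here are those cut from the 3p arm of these hairpins. They were chosen by name from the CLASH table as miR-23a-3p, miR-23b-3p, miR-24-3p, miR-27a-3p and miR-27b-3p, which made up 5 of the 298 miRNAs seen. Together they gave 201 of 15680 hybrid reads, 171 of 8181 miRNA-gene pairs and 157 of the 3200 target genes. In AGO2 CLASH a miRNA is ligated to the piece of mRNA that AGO2 holds it against, so that 1 read names both partners.

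The libraries were made from P19 cells, an embryonic carcinoma line of the mouse. The 3 WT libraries came from cells with both Dicer alleles intact, labelled Dicer (+/+). The 3 HM libraries came from an edited line labelled Dicer (HM/-), in which a truncation had removed the function of 1 allele and the other carried E1797G, a hotspot mutation of the RNase IIIb domain. The HM line was edited from a heterozygous knockout line, so that clonal differences, which the study's methods note for other miRNAs, cannot be told apart from those of the mutation. In Dicer the 5p arm is cut by RNase IIIb and the 3p arm by RNase IIIa, and the comparison asked which strands still bound their targets when the first of these cuts is lost.

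A miRNA guides AGO2 mainly through its seed, bases 2 to 8 from the 5′ end, which pairs with a complementary site in the 3′ UTR of a target mRNA. miR-23, miR-24 and miR-27 are each made from a pair of hairpins, 1 in each cluster, and their 3p strands are the usual guides. In other tissues miR-27 is known for lipid metabolism and fat cell differentiation, miR-23 for glutamine metabolism and endothelial cells, and miR-24 for the cell cycle and DNA repair.

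The mature sequences of 4 of the 5 strands, from RefSeq (GRCm38.p6), are shown because the seeds set the families used below. They are written 5′ to 3′, with the seed in capitals.
miR-27b-3p: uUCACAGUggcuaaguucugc
miR-27a-3p: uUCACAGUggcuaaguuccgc
miR-23a-3p: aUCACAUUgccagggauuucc
miR-24-3p: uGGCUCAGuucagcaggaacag

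miR-27a-3p and miR-27b-3p had the same seed and differed at 1 of 21 bases, C19U from miR-27a-3p to miR-27b-3p, with positions counted from the 5′ end. The seed of miR-23a-3p differed from that of miR-27b-3p at 1 base, U7G in the same notation. The seed of miR-24-3p differed from it at all 7 bases. On chromosome 13 the hairpins Mir23b, Mir27b and Mir24-1 spanned 792 bases (chr13:63300484-63301275) within the span of the protein-coding gene Aopep, whose exons are not in the table used. On chromosome 8 Mir23a, Mir27a and Mir24-2 spanned 404 bases (chr8:84208518-84208921) inside no other listed gene. The miR-24-3p sequence was the same from both clusters, so its hybrids could not be assigned to either.

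Library totals ran from 1621 to 2331 reads in WT and from 1661 to 5341 in HM, of which 701 to 1091 and 1585 to 5113 were 3p hybrids. Hybrids of 5p strands were 52.3% to 56.5% of those with a named arm in WT and 3.66% to 4.23% in HM. For this reason reads are given mainly as a share of the 3p hybrids of a library, and the share of all hybrids is given where it differs in direction. Where no read was seen, as many as 3 are possible, or 0.0587% of 3p hybrids in the deepest library and 0.428% in the shallowest, and such floors and all binomial intervals here cover counting error only. Of the embryonic carcinoma miRNA markers, 12 of 13 hairpins (the miR-290 to miR-295 group, miR-302 and miR-367) had hybrids, and they took 34.5% to 38.7% of all hybrids in WT and 56.9% to 59.1% in HM. Of 12 hairpins that mark neurons, liver, muscle, blood or endocrine cells, only miR-9 and miR-375 appeared, with 14 reads in all. These marker shares are of all hybrids, of which 5p strands held far less in HM. They were not computed over 3p hybrids and do not show a rise of the markers. The part of this difference in the results was not tested. Reads per miRNA in HM 1 and HM 2 differed by no more than sampling noise (chi-square test over 51 miRNAs, p = 0.961), while those in WT 2 and WT 3 differed by more (p = 1.25e-05). HM 1 and HM 2 shared only 5.02% of the distinct sequences of HM 1, against 2.73% shared by HM 1 and HM 3. As shares of the other library these were alike, 1.59% of HM 2 and 1.63% of HM 3. HM 1 and HM 2 were kept as separate libraries. The titles call the libraries biological replicates, and as nothing says how the cultures were kept apart, the p-values speak only for these libraries. Those of edgeR below also draw on a spread pooled over all features tested, and at low counts they can rest on counting error alone.

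miR-27b-3p (mmu-miR-27b-3p in the table), with 107 reads, was by far the most frequent of the 5 strands and ranked 18th of 167 3p-miRNAs. Taken in order from 1 to 3, the WT libraries held 15, 13 and 5 reads and the HM libraries 13, 36 and 25. As a share of 3p hybrids this was 1.64%, 1.19% and 0.713% in WT and 0.820%, 0.704% and 0.936% in HM. WT ranged more widely than HM, and the lowest WT library lay within the HM range. The mean was 1.18% ± 0.462 (SD, n = 3) in WT and 0.820% ± 0.116 (SD, n = 3) in HM, a difference of -0.361 percentage points (exact permutation test, two-sided p = 0.3, where 0.1 is the smallest that 3 against 3 libraries allow).

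The same reads taken over all hybrids pointed the other way. miR-27b-3p made up 0.778%, 0.558% and 0.308% of all hybrids in WT and 0.783%, 0.674% and 0.894% in HM. WT 1 fell inside the HM range and the other WT libraries below it. These are bulk libraries, so fewer cells with a hybrid and fewer hybrids per cell cannot be told apart.

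miR-27a-3p, with the same seed, had 27 reads. The WT libraries held 3, 6 and 2 in the same order and the HM libraries 4, 2 and 10, or 0.328%, 0.550% and 0.285% of 3p hybrids in WT and 0.252%, 0.0391% and 0.375% in HM. The groups overlapped, and HM 2, the deepest library, held the lowest share. The mean was lower in HM over 3p hybrids (0.388% ± 0.142 in WT and 0.222% ± 0.170 in HM) and higher over all hybrids (0.179% ± 0.0700 and 0.212% ± 0.162, SD, n = 3 each), and the libraries overlapped on both scales. miR-27b-3p exceeded miR-27a-3p in every library, by 13 to 6 reads at the closest (WT 2) and 36 to 2 at the widest (HM 2). The 2 names differ only at base 19, and guide parts were as short as 18 bases for miR-27a-3p and 19 for miR-27b-3p. The split of reads and targets between them therefore rests on 1 base near the 3′ end of the guide, as named by the authors.

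miR-23b-3p had 29 reads, with 2, 2 and 1 in WT and 3, 14 and 7 in HM. As a share of 3p hybrids these were 0.218%, 0.183% and 0.143% in WT and 0.189%, 0.274% and 0.262% in HM, and HM 1 lay among the WT libraries. As a share of all hybrids every HM library (0.181% to 0.262%) was above every WT library (0.0617% to 0.104%), as was so or the reverse for 50% of the 58 3p-miRNAs with at least 10 reads. miR-23a-3p was near the limit of detection with 4 reads, 1 in WT 1 and 3 in HM 2, and was not tested.

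miR-24-3p had 34 reads. The WT libraries held 1, 8 and 6 and the HM libraries 3, 9 and 7. WT 2 (0.733% of 3p hybrids) and WT 3 (0.856%) were the highest of the 6 libraries, and WT 1 (0.109%) was the lowest. The HM libraries lay between them at 0.189%, 0.176% and 0.262%. Its WT spread was large beside its mean, 0.566% ± 0.400 (SD, n = 3), against 0.209% ± 0.0464 (SD, n = 3) in HM.

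In HM the lowest miR-27b-3p library (0.704%) was above the highest library of each of the other 4 strands (0.375%). In WT the order was miR-27b-3p, miR-24-3p, miR-27a-3p, miR-23b-3p and miR-23a-3p, but the ranges of miR-27b-3p and miR-24-3p overlapped. Below miR-27b-3p in HM, miR-23b-3p (0.242% ± 0.0458), miR-27a-3p (0.222% ± 0.170) and miR-24-3p (0.209% ± 0.0464) did not differ beyond their spread. The strands summed to 2.40%, 2.66% and 2.00% of 3p hybrids in WT and to 1.45%, 1.25% and 1.84% in HM. No HM library reached the lowest WT library in that sum (exact permutation test, two-sided p = 0.1, the smallest possible). How often sums of 5 other strands would separate was not computed. Taken singly, none of the strands was without overlap in its share of 3p hybrids, against 56.9% of the 58 3p-miRNAs with at least 10 reads, and over all hybrids the sums overlapped at 1.08% ± 0.197 and 1.44% ± 0.282 (SD, n = 3 each).

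**Figure D1:**
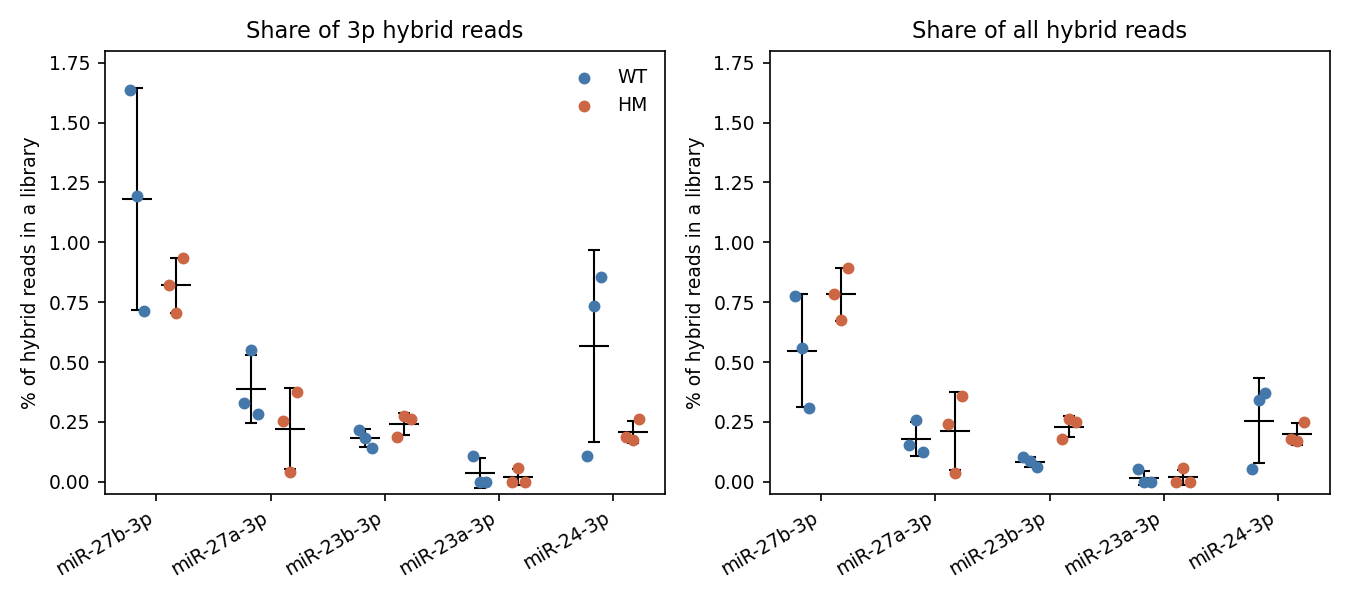
Hybrid reads of the 5 strands as a percentage of the 3p hybrids (left) and of all hybrids (right) of each library, with points for libraries (3 WT in blue, 3 HM in orange) and bars for the mean with 1 SD. miR-27b-3p lies highest in HM on both scales, and its WT and HM libraries overlap on both.

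The opposite arm of these hairpins was not seen at all. miR-23a-5p, miR-23b-5p, miR-24-1-5p, miR-24-2-5p, miR-27a-5p and miR-27b-5p had 0 reads in all 6 libraries, which allows up to 0.0562% to 0.185% of the hybrids of a library for each. The strands described here therefore had no partner strand among the hybrids, in WT or in HM.

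Across all miRNAs with at least 10 reads, the quasi-likelihood test of edgeR on counts scaled to 3p hybrids called 56 of 94 (59.6%) changed in HM at an adjusted p of 0.05 after Benjamini-Hochberg adjustment. Of these 41 (43.6%) were lower and 15 (16%) higher. Of the 58 3p-miRNAs tested, 9 (15.5%) were lower and 15 (25.9%) higher, with a median log2 fold change of 0.20. Of the 4 tested strands 1 was called, miR-24-3p, which was lower in HM by the edgeR test with a log2 fold change of -1.41 (SE 0.53, 95% interval -2.47 to -0.36, adjusted p = 0.0155). It held 34 reads, and its WT and HM libraries overlapped as described above. The exact permutation test on the share of miR-24-3p gave a two-sided p of 0.4 over 3p hybrids and 0.7 over all hybrids. The edgeR call of miR-24-3p also depended on single libraries and on the scale. Its call was lost without WT 2 (adjusted p = 0.247), without WT 3 (0.150) or without HM 2 (0.0712), and with counts scaled to all hybrids, where the log2 fold change was -0.38 (edgeR adjusted p = 0.541). It was also lost with TMM scaling over 3p strands (-1.01, edgeR adjusted p = 0.107) or over all miRNAs (-0.98, 0.113).

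The other strands did not pass. The edgeR log2 fold change was -0.60 (SE 0.36, 95% interval -1.31 to 0.11, adjusted p = 0.132) for miR-27b-3p. It was -1.16 (SE 0.61, adjusted p = 0.0853 by edgeR) for miR-27a-3p and 0.45 (SE 0.70, adjusted p = 0.573 by edgeR) for miR-23b-3p. Scaling to all hybrids moved the median of the 94 miRNAs from -0.72 to 0.33 and that of the 58 3p-miRNAs from 0.20 to 1.20. On that scale miR-27b-3p turned to 0.44 (edgeR adjusted p = 0.243) and miR-23b-3p was called higher at 1.47 (edgeR adjusted p = 0.0458), as were 51.7% of the 3p-miRNAs. Without WT 3 miR-27b-3p was called lower in HM (log2 fold change -0.82, edgeR adjusted p = 0.0252), and without HM 3 miR-27a-3p was (-2.09, edgeR adjusted p = 0.00920).

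Summed by seed, 1 of the 3 families was called, against 50.8% of the 63 families tested. For the miR-27 family, with 134 reads, edgeR gave -0.67 (log2, SE 0.37, adjusted p = 0.121), and for the miR-23 family, with 33 reads, 0.36 (log2, SE 0.60, adjusted p = 0.645). The miR-24 family, which holds the same reads as miR-24-3p, was lower in HM (-1.42, SE 0.50, edgeR adjusted p = 0.0115), as were 34.9% of families, and lost its call without the same 3 libraries as miR-24-3p (edgeR adjusted p = 0.225, 0.136 and 0.135). The miR-24 family was not called either with the total of all hybrids (edgeR adjusted p = 0.520), with TMM over 3p strands (0.106) or all families (0.0746), or with the replicate number as a block (0.0548).

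The 5′ end of the guide sets the seed. All 33 WT and all 74 HM reads of miR-27b-3p started at the first base of its most common guide sequence in these data. Of these, 29 in WT and 63 in HM were 21 bases long and the others 19 or 20. Over libraries the share of 21-base guides was 90.4% ± 8.35 in WT and 85.3% ± 2.41 in HM (SD, n = 3 each, exact permutation test, two-sided p = 0.6). miR-27a-3p started at its common base in 10 of 11 WT and 16 of 16 HM reads, miR-24-3p in 14 of 15 and 19 of 19, and miR-23b-3p in 4 of 5 and 22 of 24.

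Most target fragments carried a site for the guide they were ligated to. A site was counted as a match to guide bases 2 to 7, or to bases 2 to 6 followed by A. Of the miR-27b-3p reads 84 of 107 (78.5%, Wilson 95% interval 69.8% to 85.2%) had one, against 1.32% of the reads of all miRNAs outside the miR-27 family for the same site. The share was 63.0% for miR-27a-3p (17 of 27, interval 44.2% to 78.5%), 72.4% for miR-23b-3p (21 of 29, interval 54.3% to 85.3%) and 61.8% for miR-24-3p (21 of 34, interval 45.0% to 76.1%). Of the 21 miR-24-3p reads with a site, 7 were at the same place in Cxadr. The intervals of the 4 strands overlapped, and the share in fragments of other miRNAs was 1.45% for the miR-23 site and 0.780% for the miR-24 site. The authors kept only pairs that TargetScan predicts, so each target gene had to hold a site somewhere in its 3′ UTR, but the fragment itself did not.

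The kinds of site differed between families. Of the miR-23b-3p reads 12 of 29 had the longest site, a match to bases 2 to 8 followed by A, as had 17 of 107 for miR-27b-3p and 1 of 34 for miR-24-3p. A match to bases 2 to 7 followed by A was the commonest for miR-24-3p (12 reads) and for miR-27b-3p (31 reads). For miR-27b-3p a match to bases 2 to 8 without the A came next (26 reads). Of the 12 such miR-24-3p reads, 7 were at the same place in Cxadr. No difference between families was tested, since members are not replicates.

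**Figure D2:**
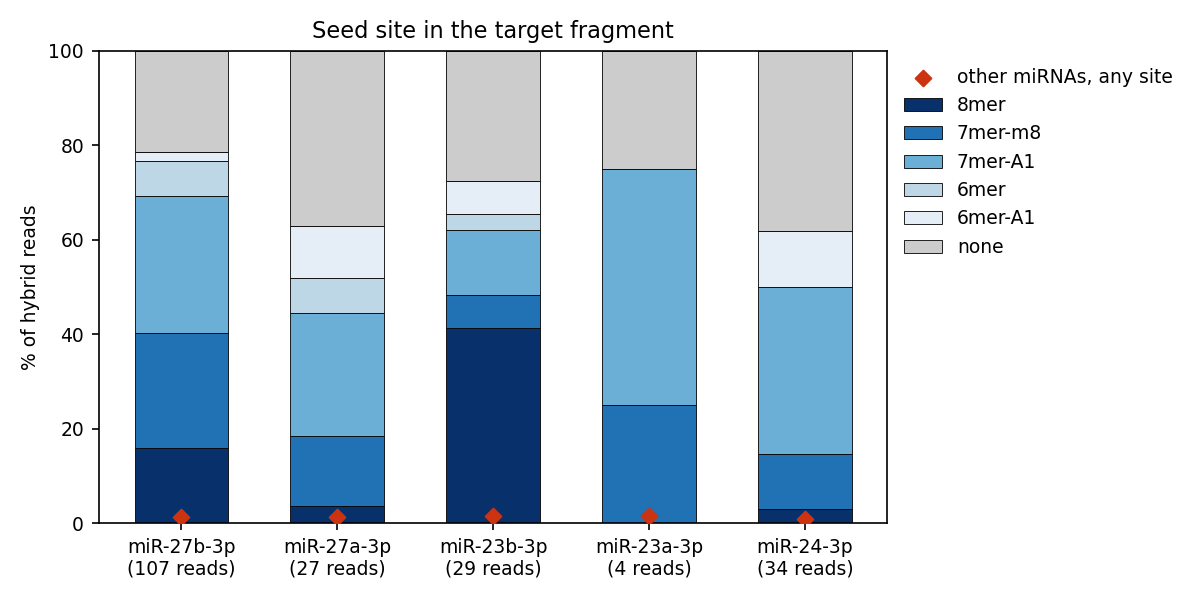
Percentage of the hybrid reads of each strand by the kind of seed site in the target fragment, over all 6 libraries. An 8mer matches bases 2 to 8 followed by A, a 7mer-m8 bases 2 to 8, a 7mer-A1 bases 2 to 7 followed by A, a 6mer bases 2 to 7 and a 6mer-A1 bases 2 to 6 followed by A. Red diamonds give any site for the same seed in hybrids of all miRNAs outside the family, 0.780% to 1.45%.

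WT and HM were compared by library for miR-27b-3p, the strand with most reads. The share of miR-27b-3p reads with a site was 86.7%, 69.2% and 80.0% in the WT libraries and 76.9%, 80.6% and 76.0% in the HM libraries. All HM libraries lay within the WT range. The difference of the means was -0.806 percentage points, less than the spread between libraries (pooled SD 6.45, exact permutation test, two-sided p = 1). For sites of at least 7 bases the means were 66.8% ± 13.1 in WT and 72.0% ± 6.97 in HM (SD, n = 3 each, exact permutation test, two-sided p = 0.7). For miR-24-3p, pooled over libraries and not tested, 7 of 15 WT reads (46.7%) and 14 of 19 HM reads (73.7%) had a site. Of these, 4 in WT and 3 in HM were at the same place in Cxadr.

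The seeds of miR-23 and miR-27 differ only at base 7, so the shortest site counted, a match to bases 2 to 6 followed by A, is the same for both families and lies within every longer site that ends in that A. A match to bases 2 to 8 tells the families apart. Of the 133 distinct miR-27 hybrids 48 matched bases 2 to 8 of miR-27 and 1 matched bases 2 to 8 of miR-23. Of the 33 miR-23 hybrids 15 matched their own bases 2 to 8 and 0 those of miR-27.

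The site lay near the 3′ end of the fragment. In the 100 miR-27 hybrids with a site a median of 5 bases (quartiles 4 and 8.25) followed the base opposite guide base 2, in fragments with a median length of 24 bases. At most 6 bases followed it in 69.0% of miR-27, 79.2% of miR-23 and 81.0% of miR-24 hybrids with a site, against 62.7% for the 6617 such hybrids of the other 3p-miRNAs. The share was 74.2% in WT and 66.7% in HM for miR-27, 75% and 80.0% for miR-23 and 71.4% and 85.7% for miR-24, with 4 and 7 WT hybrids in the last 2 families. All 7 miR-24 hybrids at the same place in Cxadr had at most 6 bases there.

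**Figure D3:**
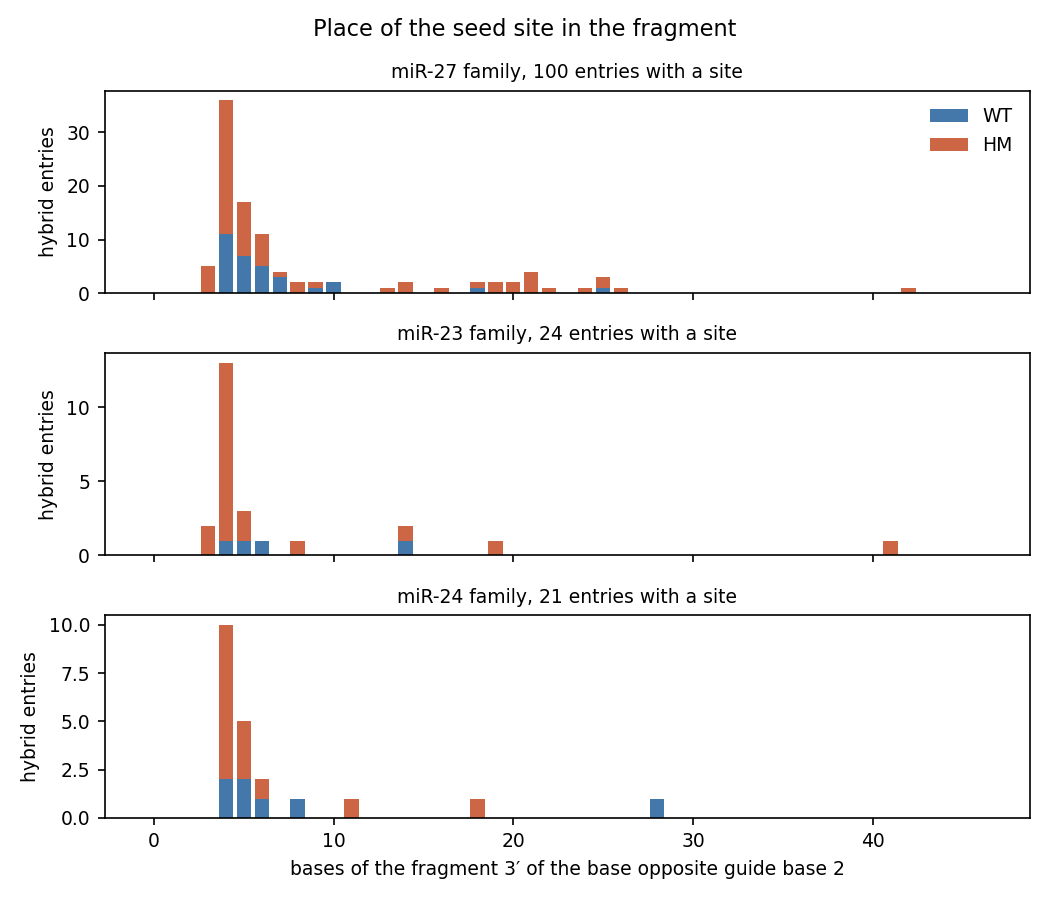
Number of distinct hybrids (entries) by the number of fragment bases that lie 3′ of the base opposite guide base 2, for the 3 seed families, with WT in blue stacked below HM in orange. The miR-27 hybrids peak at 4 bases in both genotypes, with a tail that reaches beyond 10.

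Of the reads without a site, 33 were of miR-27, 9 of miR-23 and 13 of miR-24. Some held a close match instead. In 12 of the 33 miR-27 reads (36.4%) the fragment matched bases 2 to 8 with 1 mismatch, or bases 2 to 7 with 1 or 2 extra target bases, against 6.95% of the reads of other miRNAs without a miR-27 site. For miR-23 this was 4 of 9 reads (44.4% against 11.03%) and for miR-24 1 of 13 (7.69% against 4.27%). The most frequent was in Yy1, a zinc finger transcription factor, where all 4 miR-27b-3p fragments had the same match with extra target bases. They came from WT 2, with 2 reads, and from HM 2 and HM 3, with 1 read each. The fragments of WT 2 and HM 2 are shown with the match in capitals, extra bases included.
Yy1, WT 2: ggggatatgcttagtaatgCTGTGTGAt
Yy1, HM 2: ttggggatatgcttagtaatgCTGTGTGAt
The other close matches include Klhl28, where the miR-27b-3p fragment of HM 2 had 1 mismatch while miR-27a-3p had a full match to bases 2 to 7 elsewhere in the same 3′ UTR in WT 1.

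Predicted duplexes were weaker for miR-27 than for miR-24. The median RNAduplex energy was -12.0 kcal/mol for miR-27, -13.3 for miR-23 and -16.1 for miR-24. The same guides paired in silico with fragments of other miRNAs gave medians of -7.9, -7.4 and -8.3 kcal/mol with a median fragment length of 24 bases, against 24, 24 and 24.5 for the hybrids of the 3 families. Guide bases 13 to 16, where extra 3′ pairing is often found, were all paired in 15 of 133 miR-27 hybrids (11.3%), fewer than the 18.4% with fragments of other miRNAs. The shares were 39.4% against 24.4% for miR-23 and 41.2% against 30.2% for miR-24. Repeats of 1 place are counted separately here. The 15 miR-27 hybrids include all 4 of Yy1. The 7 miR-24 hybrids at the same place in Cxadr had energies of -17.7 or -17.0 kcal/mol, and none had bases 13 to 16 all paired. These are descriptions over hybrids, with no test.

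The target genes were many and mostly seen once. The miR-27 family was joined to 107 genes, miR-23 to 30 and miR-24 to 26, and 91, 27 and 23 of them had 1 read. Drawn down to 5 reads, the number in the smallest library, miR-27b-3p held an expected 4.90, 4.87 and 4.00 different genes in WT and 4.87, 4.94 and 4.97 in HM. WT 3 was lowest because 2 of its 5 reads were of the same Suco sequence, and the other 5 libraries lay close to the maximum (exact permutation test, two-sided p = 0.3). In draws of 50 reads over all libraries miR-27b-3p reached 44.5 genes, 9th of the 26 3p-miRNAs with at least 50 reads (range 28.4 to 46.3, median 42.7). By its share of reads with a site it was 7th of the same 26 (range 40.1% to 91.0%, median 64.1%).

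A gene seen again was usually hit at the same place. Of the 22 genes with at least 2 reads of 1 family, 20 had fragments that shared a stretch of at least 10 bases, and in 199 of 200 entries the sequence had been read once. Overlaps of target lists between WT and HM were small at this depth. For miR-27, 8 genes were seen in both, 20.5% of 39 in WT and 10.5% of 76 in HM. For miR-24 there were 3, 25.0% of 12 in WT and 17.6% of 17 in HM, and for miR-23 there were 0 of 6 in WT and 24 in HM.

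**Figure D4:**
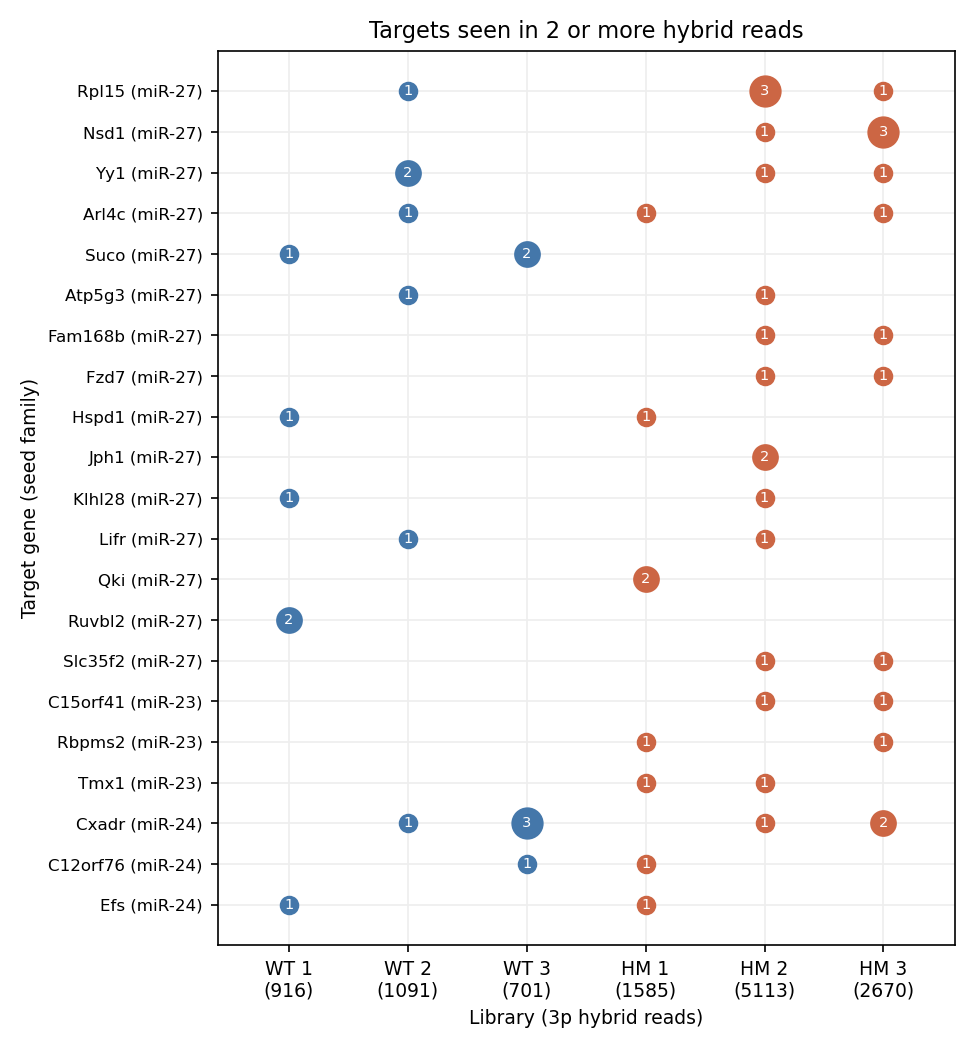
Reads of each of 21 target genes with at least 2 reads of 1 seed family, by library. The area and number of a point give the reads (WT blue, HM orange), and the number under a library is its 3p hybrid reads. Cxadr (miR-24), with 7 reads, was seen in 4 of the 6 libraries, and no gene in all 6.

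Cxadr, which encodes a cell adhesion protein that is also the receptor of coxsackie viruses and adenoviruses, was the most frequent single target. The WT libraries held 0, 1 and 3 reads of miR-24-3p on it and the HM libraries 0, 1 and 2. It was seen in both genotypes and in neither library 1. All 7 reads, of 6 different fragments, held the same site, a match to bases 2 to 7 of miR-24-3p followed by A, shown here in capitals.
Cxadr, WT 2: ttagcgtgtatTGAGCCAgca
Cxadr, WT 3: tagcgtgtatTGAGCCAgcatt
Cxadr, HM 2: tagcgtgtatTGAGCCAgca
Cxadr, HM 3: gtagcgtgtatTGAGCCAgca
Those reads were 17.5% of the 40 hybrid reads of Cxadr, whose most frequent partner was miR-302b-3p with 15. miR-23b-3p had 1 read on Cxadr in WT 1, at another place. Efs, a docking protein of SRC signalling, was seen with miR-24-3p only, at 1 site, in WT 1 and HM 1.
Efs, WT 1: tgcgttttgtaTGAGCCAtttt
Efs, HM 1: ctgcgttttgtaTGAGCCAtttt

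Rpl15, a protein of the large ribosomal subunit, led the miR-27 targets. miR-27b-3p had 1 read on it in WT 2, 3 in HM 2 and 1 in HM 3, and none elsewhere. These 5 reads had 5 different fragments with 20 bases in common and were 38.5% of the 13 hybrid reads of Rpl15, more than any other miRNA had.
Rpl15, miR-27b-3p, WT 2: atgagtgttCTGTGAAaatgt
Rpl15, miR-27b-3p, HM 2: atgagtgttCTGTGAAaatg

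Nsd1, a histone lysine methyltransferase, had 4 reads of the miR-27 family, 1 in HM 2 and 3 in HM 3, and none in WT. Suco, an endoplasmic reticulum protein required for bone formation, had the opposite pattern. It had 1 read in WT 1, 2 reads of the same sequence in WT 3 and none in HM. Such counts are at the floor of 3 reads or close to it and do not show a difference. Arl4c, a small GTPase, had 1 read each in WT 2, HM 1 and HM 3. Nsd1 had the longest site and the other genes a match to bases 2 to 7 followed by A.
Nsd1, miR-27b-3p, HM 2: atgaaaaaACTGTGAAgtggggggtggggg
Suco, miR-27b-3p, WT 1: tagtcactgtgtgCTGTGAAagg
Arl4c, miR-27b-3p, WT 2: tgcatatatgatgCTGTGAAcagaaa
Arl4c, miR-27a-3p, HM 1: atatatgatgCTGTGAAcag

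The other leading miR-27 targets had 2 reads each. Atp5g3, a subunit of mitochondrial ATP synthase, had 1 in WT 2 and 1 in HM 2, and Hspd1, the mitochondrial chaperonin, 1 in WT 1 and 1 in HM 1. Fzd7, a Wnt receptor, and Fam168b each had 1 in HM 2 and 1 in HM 3. miR-27a-3p and miR-27b-3p shared 7 target genes, 25.9% of the 27 of miR-27a-3p and 8.05% of the 87 of miR-27b-3p. In 6 of the 7, among them Arl4c, Atp5g3, Fam168b, Hspd1 and Nsd1, both strands were joined to the same place, and Klhl28 was the exception.

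The miR-23 targets with most reads were Tmx1, an oxidoreductase of the endoplasmic reticulum membrane, Rbpms2, an RNA-binding protein, and C15orf41. Each had 2 reads, all in HM. Tmx1 (HM 1 and HM 2) and Rbpms2 (HM 1 and HM 3) held the longest site, and C15orf41 (HM 2 and HM 3) was joined once to miR-23a-3p and once to miR-23b-3p at the same place.
Tmx1, miR-23b-3p, HM 1: atttctcttttttAATGTGAAgat
Tmx1, miR-23b-3p, HM 2: ttctcttttttAATGTGAAgat
Rbpms2, miR-23b-3p, HM 3: tgaccctgtaagAATGTGAAact
The next by name, with 1 read each, include Atp7a, a copper transporter, where miR-23b-3p had 1 of 189 hybrid reads and miR-92a-3p had 128. No other of the 157 targets had as many hybrid reads.

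Few genes were joined to more than 1 family. miR-27 and miR-23 shared 4 (Bend3, Enc1, Larp4 and Sox11, 3.74% of the miR-27 and 13.3% of the miR-23 targets), miR-27 and miR-24 shared Dab2ip, and miR-23 and miR-24 shared Cxadr. In none of these 6 did the fragments of the families overlap. Other miRNAs also used the same places at times. Of the 200 entries 15 overlapped by at least 15 bases with a fragment joined to a miRNA of another seed, among them 2 of Rpl15 with miR-367-3p. For 30 miR-27, 7 miR-23 and 7 miR-24 targets the family held every hybrid read of the gene. Most of these genes had 1 hybrid read in all and none more than 2, so this does not show that other miRNAs leave them unbound.

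No pair of a member and a gene reached 10 reads, so none was in the test of 140 pairs, of which 22 (15.7%) were called. None of the members' seed family and gene pairs was in the test of 235 such pairs either, of which 50 (21.3%) were called. With no minimum of reads 171 member pairs were tested by edgeR and 0 passed, against 0.379% of all 8181 pairs, and of 163 family and gene pairs of these strands 0 passed, against 1.21% of all 6034. Of these 1, miR-27b-3p on Suco, had an unadjusted p under 0.05, with an adjusted p of 0.590. At 1 to 7 reads a pair, a difference between WT and HM in a single target was not detectable at this depth.

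Genes often named as targets of these miRNAs, and genes of signalling pathways, were counted against the share of all genes. Of 10 known miR-27 targets, such as Pparg, Foxo1 and Abca1, 4 had hybrids of some miRNA (7 reads) and 0 had a hybrid of the 5 strands. Of 10 known miR-23 targets 7 had hybrids (63 reads) and 1, Cxcl12, a chemokine, had 1 read of miR-23b-3p in HM 2, on the longest site. Of 10 known miR-24 targets 5 had hybrids (21 reads) and 0 with these strands. In the TGF-beta and SMAD pathway, which carries signals from cell surface receptors to the nucleus, 20 of 31 genes had hybrids (185 reads). Among them Bmpr2, a receptor for bone morphogenetic proteins, was the only one joined to these strands, with 1 miR-27b-3p read in WT 1. In the receptor tyrosine kinase and RAS pathway 12 of 33 genes had hybrids (74 reads) and 0 with these strands. Over all genes, 157 of the 3200 with any hybrid (4.91%) were joined to at least 1 of the 5, and at counts this small the lists cannot be set apart from that share.
Cxcl12, miR-23b-3p, HM 2: actgtctcccagatAATGTGAAaacggtcc
Bmpr2, miR-27b-3p, WT 1: gaatgaattgtCTGTGAgatgtt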

How the data were processed

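AGO2 CLASH hybrids of 3 WT and 3 HM libraries were analysed. The deposited table holds counts, the reads of each distinct hybrid sequence in a library, with no scaling. Per the study's methods the authors named the miRNA part with QuagmiR, aligned the target part with Bowtie2 to mouse 3′ UTRs and kept pairs predicted by TargetScan 8.0. Build, versions and treatment of PCR duplicates were not given in the sources used here, so reads may not be independent molecules. Reads from outside 3′ UTRs and unpredicted pairs are in no count.

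Reads were summed per miRNA, seed family and gene. Features with at least 10 reads were tested with edgeR 4.0.16 (quasi-likelihood, Benjamini-Hochberg, threshold 0.05, R 4.3.3), with the 3p hybrid total as library size, and with DESeq2 1.42.0 as an alternative. Shares were compared by exact permutation. Sites, overlaps and draws were computed in Python 3.11.15, and duplexes with ViennaRNA 2.7.2. Scripts were tested on simulated counts with a 4-fold change. The change was called for 16 of 23 miRNAs (69.6%) and 8 of 15 seed families (53.3%). It was called for 6 of 35 miRNA-gene pairs (17.1%) and 15 of 58 family and gene pairs (25.9%). A result that did not pass therefore does not show the absence of a change.

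The members and lists were chosen with earlier results of these data known. Known targets, pathways and markers were written from general knowledge. Named targets were taken from the 10 genes with most reads per family (ties by name) and genes of the lists, and 1 target is not reported here. Klhl28, Enc1, Larp4 and Sox11 were named, and the Yy1 fragments shown, after their values were seen. Of 157 target names 141 matched the reference table as a symbol and 8 as a synonym. Alternatives were other library sizes, sequences counted once, other read minimums, a replicate block, summed libraries and leaving out each library.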

Additional observations from a re-analysis of the deposited data

How the results depend on the processing

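Under all alternatives the edgeR log2 fold change of miR-27b-3p ran from -0.82 to 0.44. It turned positive with counts scaled to all hybrids (0.44), as did the miR-27 family (0.37) and the difference in share (0.236 percentage points of all hybrids). Leaving out 1 library at a time gave -0.82 to -0.30 for miR-27b-3p, -2.09 to -0.30 for miR-27a-3p, 0.33 to 0.59 for miR-23b-3p, -1.91 to -1.08 for miR-24-3p and -0.93 to -0.41 for the miR-27 family. In these fits miR-27b-3p was called without WT 3, miR-27a-3p without HM 3, and the miR-27 family without WT 3 (edgeR adjusted p = 0.00981) or HM 3 (0.0471). The call of miR-24-3p was lost with counts scaled to all hybrids (-0.38) and with TMM over 3p strands (-1.01) or over all miRNAs (-0.98), besides the 3 libraries named above, and that of the miR-24 family under the same settings. miR-23b-3p (1.47) and the miR-23 family (1.38) passed only with all hybrids as the scale. The difference in the share of miR-27b-3p reads with a site, -0.806 percentage points, ran from -5.51 to 3.21 with 1 library left out. It was 0.860 with each sequence counted once, 5.14 for sites of at least 7 bases, 0.0826 for matches to bases 2 to 7 alone and 5.01 with miR-27a-3p added. The number of different genes at equal reads differed by -0.000131 with each sequence counted once and by 0.30 to 0.49 with 1 library left out. With 1 library left out the difference in share of 3p hybrids ran from -0.594 to -0.132. The difference in the share of miR-27b-3p reads with the common start stayed at 0. No pair of a strand and a gene could be tested except with no minimum of reads, where 0 were called. The causes were not tested.

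No pairing of the libraries by replicate number was seen. The correlations of same-numbered deviations were 0.03, -0.09 and -0.03 over 40 miRNAs, against -0.08 to 0.08 for libraries of different numbers. At this depth a pairing could have been missed. With the replicate number as a block the log2 fold change was -0.53 (edgeR adjusted p = 0.270) for miR-27b-3p and -1.57 (0.0246) for miR-24-3p. The block ended the call of the miR-24 family (-1.51, edgeR adjusted p = 0.0548) and changed no other call of these strands. Summing HM 1 and HM 2 changed none of them. Depth is the main limit: 65 WT reads stand behind the WT values, and 1 to 7 reads behind each target.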
